A study of Arabidopsis thaliana with 6 samples.

Results

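*SIG4*, *FSD2* and *GLK1* are 3 nuclear genes whose products act on transcription in the chloroplast or on the nuclear genes that build it, and their transcript levels were compared between the wild type Col-0 and the mutant *rcb-10*. They are 3 of 13836 genes with a named probe set on the array. They were selected on the difference measured between these same arrays: the study's Supplementary Data 1, a table of genes picked by their fold and corrected p between the genotypes, names a probe set for each of them, 250255_at for *SIG4* (AT5G13730, chromosome 5), 248493_at for *FSD2* (AT5G51100, chromosome 5) and 263715_at for *GLK1* (AT2G20570, chromosome 2). Their differences between the genotypes are therefore given as a description and were not tested.

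Both groups consisted of whole seedlings (root, hypocotyl and cotyledon together) in the Col-0 ecotype, stratified for 4 days and then grown without sucrose for another 4 days in continuous R light of 10 μmol per square metre per second. *rcb-10* is a single insertion line: a T-DNA sits in the second intron of *RCB*, and the study describes its seedlings as tall, albino and without RCB protein. Each genotype was measured on 3 ATH1 arrays, 1 for each of 3 seedling samples grown and harvested separately. An ATH1 probe set is a group of short oligonucleotides that reads the transcripts of 1 gene or a few close relatives, and its signal is in arbitrary units that cannot be compared between probe sets.

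RNA polymerases of different origin transcribe chloroplast DNA. The plastid-encoded polymerase (PEP) resembles that of bacteria. Its core subunits are made from the plastid *rpo* genes, and it needs a nuclear-encoded sigma factor to find a promoter and a set of nuclear-encoded PEP-associated proteins to be active. The nuclear-encoded polymerase (NEP) resembles that of phages and transcribes, among others, the *rpo* genes. SIG4 is one of the sigma factors of *Arabidopsis*, and its best known target is the plastid gene *ndhF*. FSD2, also called PAP9, is a PEP-associated protein and an iron superoxide dismutase, an enzyme that removes superoxide. GLK1 is a nuclear transcription factor that, together with its close relative GLK2, switches on genes for chlorophyll synthesis and light-harvesting proteins.

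The arrays had been scaled to a common trimmed mean signal of 500, and their median signals were 207.9 to 210.7 in Col-0 and 183 to 187.4 in *rcb-10*. Background was set at a signal of 43.79, that of the brightest trp probe set (an array control with a bacterial sequence), and 19.5% to 21.7% of probe sets were below it. The log2 signals of 22746 probe sets were compared with limma, and 16.9% of them passed an adjusted p under 0.05 (3853 probe sets, 6.76% higher and 10.2% lower in *rcb-10*). A gene that passed is said below to have risen or fallen. The median log2 difference of all probe sets was −0.04. It moved by 0.17 when each array was centred on its median, which adds as much to every difference.

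*SIG4* was higher in *rcb-10*. Its signal was 324.2, 396.1 and 377 on the Col-0 arrays and 1116, 1184 and 1049 on the *rcb-10* arrays. The lowest *rcb-10* array was well above the highest Col-0 array, and all 6 arrays were at least 7.4 times the background level. The means were 366 ± 37.2 in Col-0 and 1116 ± 67.8 in *rcb-10* (SD, n = 3 arrays each), a log2 difference of 1.61 or a fold of 3.06. Of all probe sets, 448 (1.97%) had a larger difference in that direction. RefSeq lists 1 transcript for the gene.

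*GLK1* was lower in *rcb-10* by nearly the same factor. Its signal was 1247, 1101 and 984 in Col-0 and 370, 379 and 355 in *rcb-10*, so that the arrays of the genotypes did not overlap. The *rcb-10* arrays lay close together, while Col-0 replicate 1 was the highest of its group and replicate 3 the lowest. The means were 1111 ± 132 and 368 ± 11.95 (SD, n = 3 arrays each), a log2 difference of −1.59 or a fold of 3.01, and 541 probe sets (2.38%) had a larger difference downward. RefSeq lists 3 transcripts of *GLK1*, which 1 probe set does not tell apart.

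*FSD2* was also lower, by less. Its signal was 578, 422 and 447 in Col-0 and 242, 285 and 259 in *rcb-10*. The genotypes again did not overlap, but Col-0 replicate 1 stood above the other Col-0 arrays. The means were 482 ± 83.9 and 262 ± 21.6 (SD, n = 3 arrays each), a log2 difference of −0.87 or a fold of 1.83, and 2332 probe sets (10.3%) had a larger difference downward. RefSeq lists 6 transcripts of this gene.

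**Figure D1:**
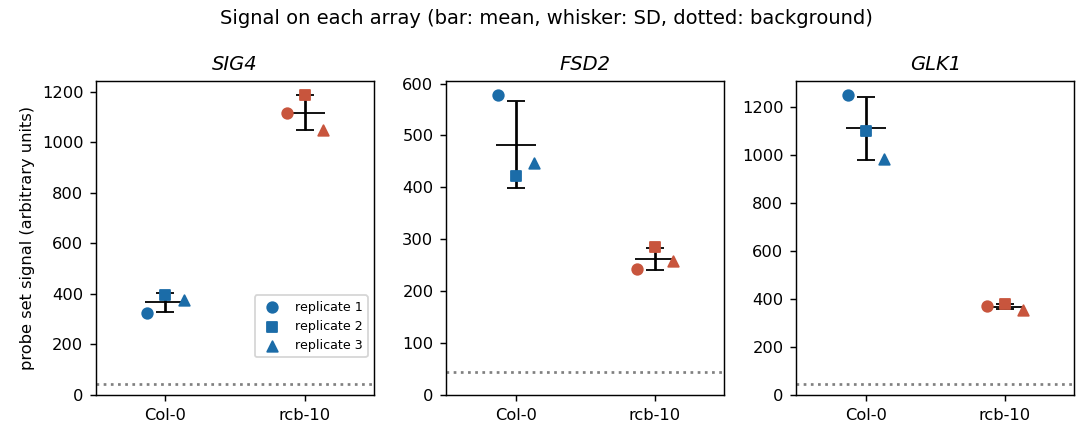
Probe set signal (arbitrary units, linear axis from 0) of *SIG4*, *FSD2* and *GLK1* on each of the 3 Col-0 and 3 *rcb-10* arrays, with the mean and SD of each group and the background level of 43.79 as a dotted line. The arrays of the genotypes do not overlap for any of the 3 genes, with *SIG4* higher and *FSD2* and *GLK1* lower in *rcb-10*.

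Arrays that did not overlap were frequent among all probe sets: 17.4% were higher on every *rcb-10* array than on every Col-0 array and 23.1% were lower. Nothing is read from the 3 genes against these shares, because the same contrast had selected them. The table that selected them asks for a fold of at least 2 and a corrected p under 0.05 in the study's own processing. In the limma fit 2.8% of all probe sets were at least 2-fold higher with an adjusted p under 0.05 and 4.41% were at least 2-fold lower. In the deposited values *FSD2*, at 1.83-fold, lay closest to that fold threshold and did not reach it. Of the nuclear regulators examined but not named in the table, the nearest were *NCP* (2.23-fold lower) and *HYH* (1.58-fold higher). *NCP* met both criteria in the deposited values (adjusted p = 0.0174 in limma and 0.0385 by the methods' t-test). The same criteria on the deposited values would thus not select the same genes.

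The ratio of 2 signals on the same array does not depend on how arrays are scaled against each other. The log2 ratio of *SIG4* over *GLK1* was −1.94, −1.48 and −1.38 in Col-0 and 1.60, 1.64 and 1.56 in *rcb-10*, a change of 3.20. The ratio of *SIG4* over *FSD2* changed by 2.48. Both were higher on every *rcb-10* array than on any Col-0 array. That was fixed in advance, because *SIG4* was higher and *GLK1* and *FSD2* were lower without overlap. The ratio of *GLK1* over *FSD2* was 1.11, 1.38 and 1.14 in Col-0 and 0.61, 0.41 and 0.46 in *rcb-10*, a change of −0.72. It was lower on every *rcb-10* array than on any Col-0 array. Both genes were selected on this contrast, and how often other pairs separate in this way was not counted.

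Replicate spread is given as a description for the 3 genes. They were selected by a corrected p, which favours a small spread, so nothing is read from it against the medians. The SD of log2 signal was 0.15 for *SIG4*, 0.17 for *GLK1* and 0.24 for *FSD2* in Col-0, where the median over all probe sets was 0.23. In *rcb-10* it was 0.09, 0.05 and 0.12, below the median of 0.21. Col-0 replicate 1 lay below the mean of its group for *SIG4* (by 0.17 on the log2 scale) and above it for *FSD2* and *GLK1* (by 0.28 and 0.17). Without that array the log2 differences were 1.53, −0.73 and −1.50.

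**Figure D2:**
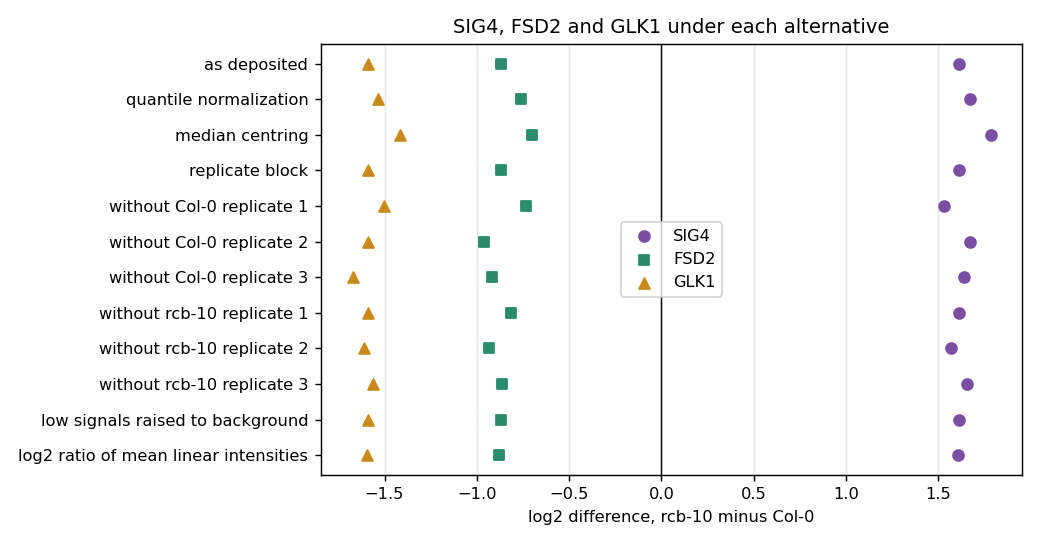
Log2 difference (*rcb-10* minus Col-0) of *SIG4*, *FSD2* and *GLK1* as deposited, under other ways to scale or average the arrays, and with each array left out. *SIG4* stays between 1.53 and 1.78, *GLK1* between −1.67 and −1.42 and *FSD2* between −0.96 and −0.70.

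The partners of SIG4 and FSD2 in the PEP complex were examined next. No other sigma factor and no other PEP-associated protein has a probe set named in the sources used here, and they were not analysed on the arrays. The study measured both families by qRT-PCR, *SIG4* and *FSD2* included, in seedlings of the same age and light. It reports that their transcripts did not change significantly between *rcb-10* and Col-0. On the arrays *SIG4* was higher and *FSD2* lower, as given above. The study's figure of the qRT-PCR marks a fold change only where it is above 2 with a statistical difference. On the arrays the fold of *SIG4* was 3.06, and that of *FSD2*, 1.83, was below such a mark. Whether and why the arrays and the qRT-PCR differ for these genes was not tested. Of 16 further genes for proteins that act on plastid transcription, 2 were measured. *NCP*, which encodes a dual-targeted relative of RCB that also acts in phytochrome signaling and PEP assembly, fell in *rcb-10*. Its signal was 411, 321 and 289 in Col-0 and 136, 179 and 141 in *rcb-10*, with no overlap, and the log2 difference was −1.16 (standard error 0.19, adjusted p = 0.0174). The call ended when the array dropped was the second of Col-0, or either the first or the third of *rcb-10* (adjusted p up to 0.0631). *RPOTmp*, a phage-type polymerase directed to both mitochondria and plastids, was close to background, with means of 48.3 ± 20.3 in Col-0 and 31.1 ± 8.48 in *rcb-10* (SD, n = 3 arrays each), and did not pass (adjusted p = 0.366).

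The plastid genes of the PEP core stood far higher in *rcb-10*. All 4 core genes rose, beside 6.76% of all probe sets, and their median log2 difference was 2.76, beside −0.04 over all probe sets. *rpoC1*, for the β′ subunit, had signals of 1390, 1152 and 1043 in Col-0 and 8255, 7892 and 8503 in *rcb-10* (log2 difference 2.79, standard error 0.14, adjusted p = 0.00381). *rpoC2*, for the β″ subunit, and *rpoA*, for the α subunit, rose by 2.73 (standard error 0.11, adjusted p = 0.00381) and 1.52 (standard error 0.11, adjusted p = 0.00433). *rpoB*, for the β subunit, was measured at 32.6, 46.8 and 46.0 in Col-0, where 1 array was below background, and at 295, 299.6 and 299 in *rcb-10* (log2 difference 2.85, adjusted p = 0.00381). With low signals raised to background the log2 difference of *rpoB* was 2.71. That of *SIG4*, 1.61, was below those of *rpoC1* and *rpoC2* and near that of *rpoA*, and these gaps were not tested.

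Most plastid genes of photosynthesis that passed were lower. Of 20 listed plastid genes that were measured, 9 fell, 1 rose and 10 did not pass (10.2% and 6.76% of all probe sets fell and rose), and their median log2 difference was −0.67. *rbcL*, for the large subunit of Rubisco, fell by 2.55 (standard error 0.13, adjusted p = 0.00381). *psbA* and *psbD*, for the reaction centre proteins of photosystem II, fell by 2.87 (standard error 0.19, adjusted p = 0.00423) and 2.68 (standard error 0.18, adjusted p = 0.00423). Without *rcb-10* replicate 3 the count of genes that passed was 5 in place of 10, and it was 6 when the array left out was the first or second of Col-0 or the second of *rcb-10*.

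*ndhF*, the known target of SIG4, encodes a subunit of the plastid NDH complex, which passes electrons from ferredoxin to plastoquinone. Its signal was 51.5, 79.0 and 108 in Col-0 and 63.9, 4.55 and 5.88 in *rcb-10*. On 2 of the 3 *rcb-10* arrays, replicates 2 and 3, the signal was below background, while replicate 1 lay between the Col-0 arrays. The log2 difference of −2.67 had a standard error of 1.06 and did not pass (adjusted p = 0.144). It passed without *rcb-10* replicate 1 (adjusted p = 0.0221) and with a variance trend and robust variances (adjusted p = 0.0461), and it shrank to −0.61 when low signals were raised to background. The level of *ndhF* on these arrays is thus too near background to set beside that of *SIG4*.

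Of 9 other measured genes of the NDH complex, 1 rose, 2 fell and 6 did not pass, beside 6.76% of all probe sets that rose and 10.2% that fell. The calls of the 2 that fell held without *rcb-10* replicate 1 and ended when any other array was dropped (adjusted p up to 0.101). For 1 of them the call also ended with median centring and the methods' t-test (adjusted p = 0.0577 and 0.0691). Of the 6, 1 passed as higher with both (adjusted p = 0.0345 and 0.0418). *ndhH*, which rose, had signals of 292, 269.7 and 234 in Col-0 and 1384, 1247 and 1280 in *rcb-10*, a fold of 4.93 (adjusted p = 0.00381). *psbN*, a known target of the sigma factor SIG3, had a log2 difference of 0.54 (standard error 0.30) and did not pass (adjusted p = 0.268). The labelling kit primes on poly(A) tails, which most plastid messages lack, and the part of this step in the plastid signals was not tested.

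**Figure D3:**
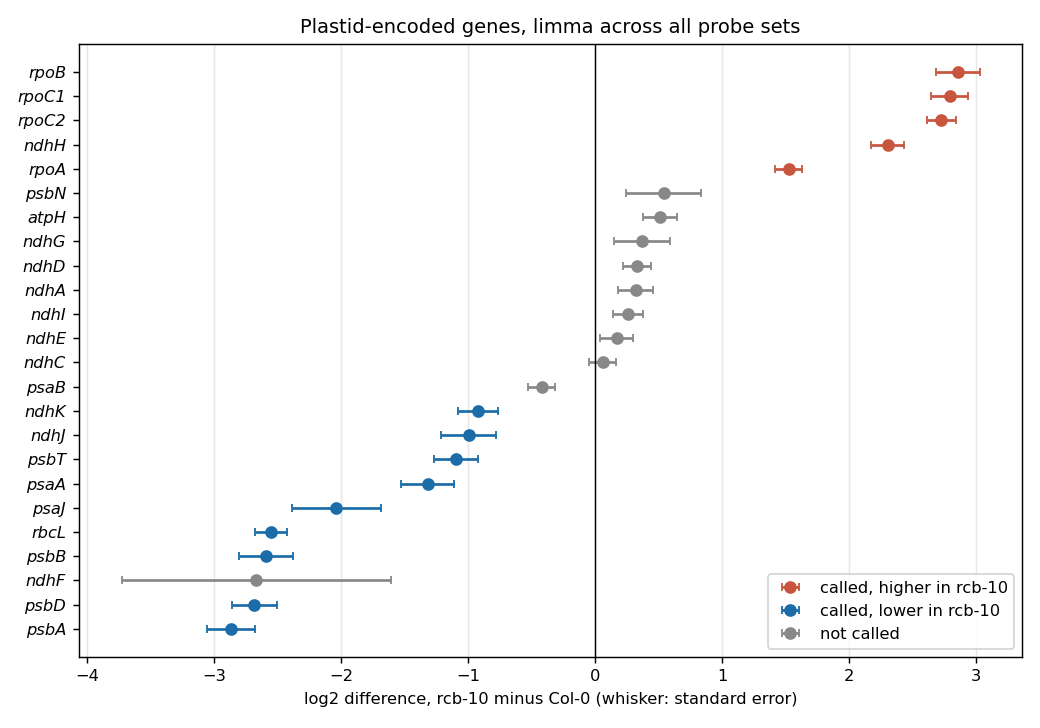
Log2 difference (*rcb-10* minus Col-0, with the standard error of limma) of the 20 measured plastid genes and the 4 genes of the PEP core, coloured by whether they passed an adjusted p under 0.05 over all probe sets. The *rpo* genes and *ndhH* lie to the right, from 1.52 to 2.85, the photosystem genes and *rbcL* mostly to the left, and *ndhF* has the widest error.

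The genes closest to FSD2 in function are those that remove superoxide and hydrogen peroxide. *FSD1*, the other iron superoxide dismutase measured, was lower in *rcb-10*, as *FSD2* was. Its signal was 8059, 8519 and 7324 in Col-0 and 2494, 1451 and 2097 in *rcb-10*, a log2 difference of −2.02 or a fold of 4.05. The genotypes were far apart, and the *rcb-10* arrays spread more than those of *FSD2*. Its probe set, too, is named only through Supplementary Data 1, so that it was not tested or counted. *CCS*, the chaperone that delivers copper to the copper/zinc superoxide dismutases, was in the opposite direction. Its signal was 1160, 1065 and 1694 in Col-0 and 1864, 2634 and 2339 in *rcb-10*, without overlap, for a log2 difference of 0.82 (standard error 0.23), which missed the threshold (adjusted p = 0.0676). Col-0 replicate 3 was the highest of its group, and without it *CCS* passed (adjusted p = 0.0472). It also passed with median centring, without the dimmest 25% of probe sets and with a variance trend and robust variances (adjusted p = 0.0407, 0.0226 and 0.00714).

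The plastid peroxidases had smaller differences. *SAPX*, an ascorbate peroxidase of the stroma and mitochondria, had signals of 900, 616 and 866 in Col-0 and 456, 644 and 527 in *rcb-10*, and 1 *rcb-10* array lay within the range of Col-0 (log2 difference −0.54, standard error 0.21, adjusted p = 0.142). It passed with a variance trend and robust variances (adjusted p = 0.0393). Of the 4 genes counted in this list, which leaves out *FSD1* and *FSD2*, 0 passed in limma and 0 by the methods' t-test, and 2 had an unadjusted p under 0.05. Over all probe sets these shares were 16.9%, 14% and 33.3%. The remaining 7 of the 13 listed genes have no probe set named here.

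Of 29 listed GLK factors and known target genes, 23 have no probe set named here, and 5 target genes were measured. Of these 5 genes, 1 fell and 4 showed no call, beside 10.2% of all probe sets that fell, and their median log2 difference was 0.20. Over all probe sets 16.9% passed, so a count among so few genes says little about targets of GLK1. *PORB*, which reduces protochlorophyllide in the light, was the one that fell, from 8526, 9625 and 10356 in Col-0 to 5888, 5471 and 5629 in *rcb-10* (log2 difference −0.74, standard error 0.12, adjusted p = 0.0172). The call ended when Col-0 replicate 2 or a single *rcb-10* array, whichever it was, was removed (adjusted p up to 0.0654). *CHLM*, the methyltransferase that follows magnesium chelatase in chlorophyll synthesis, had signals of 11796, 12223 and 9232 in Col-0 and 14918, 13386 and 13522 in *rcb-10*, a log2 difference of 0.34 (standard error 0.15) that did not pass (adjusted p = 0.183).

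The other targets measured were the 3 genes of the antenna protein CP29, named here after their values were seen. Their log2 differences were 0.14, 0.20 and 0.26 for *LHCB4.1*, *LHCB4.2* and *LHCB4.3*, and none passed (adjusted p = 0.372, 0.303 and 0.352). After quantile normalization the first and second of these became −0.04 and −0.01. *LHCB4.1* passed by the methods' t-test (adjusted p = 0.0467) and with low signals raised to background (adjusted p = 0.0282). *GLK2* has no probe set named here, so that the combined level of the GLK factors is not known.

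Of 20 listed regulators of greening and red light responses, 1 was measured. *HYH*, a bZIP transcription factor closely related to HY5, rose in *rcb-10*, from 514, 427 and 424 to 662, 734 and 758 (log2 difference 0.66, standard error 0.13, adjusted p = 0.0279). The arrays did not overlap, but of the 6 refits that each dropped an array the call held in the one lacking Col-0 replicate 1 and ended in the others (adjusted p up to 0.0927).

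**Figure D4:**
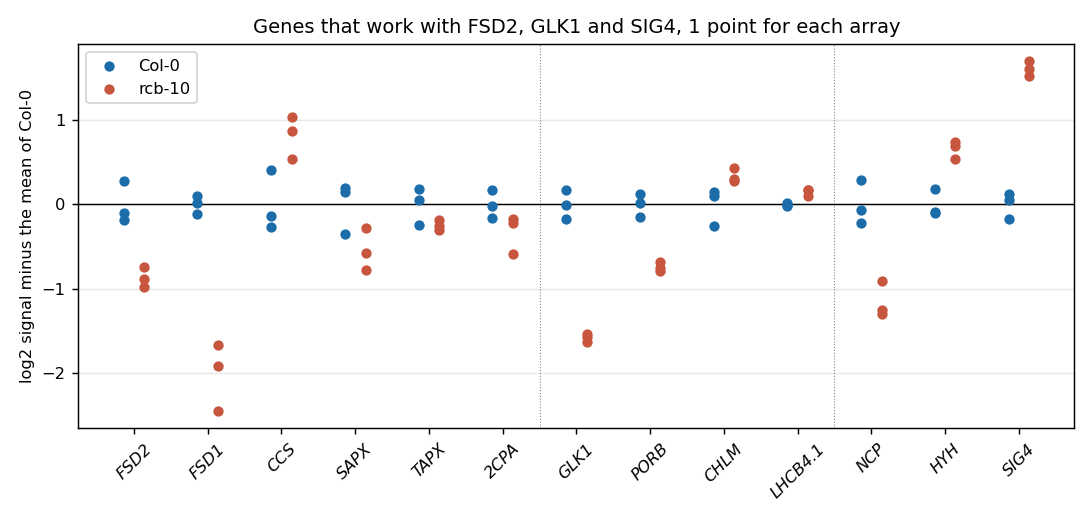
Log2 signal of each array minus the mean of the Col-0 arrays, for *FSD2* with superoxide and peroxide scavengers, *GLK1* with target genes, and *SIG4* with *NCP* and *HYH*. Every gene shown lies on one side of 0 on all *rcb-10* arrays. *FSD1*, *FSD2*, *SAPX*, *TAPX*, *2CPA*, *GLK1*, *PORB* and *NCP* lie below it, and *CCS*, *CHLM*, *LHCB4.1*, *HYH* and *SIG4* above it. The arrays of the genotypes overlap for *SAPX* and *TAPX*, and the share of all probe sets on one side of 0 was not counted.

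The probe sets whose levels ran most like those of each gene were sought among 8793 that name 1 gene and were above background on all 6 arrays, by Pearson's r of log2 signals over the 6 arrays. Such an r mostly follows the difference between genotypes, and the genes below were picked for a high r over these same arrays: 517, 455 and 606 probe sets had an r of at least 0.95 with *SIG4*, *FSD2* and *GLK1*. Closest to *SIG4* were *MCCB* (r = 0.998), a subunit of the methylcrotonyl-CoA carboxylase of leucine breakdown, AT4G33150 (r = 0.997), a bifunctional enzyme of lysine breakdown, and AT3G19390 (r = 0.997). *MCCB* had signals of 1237, 1651 and 1683 in Col-0 and 6639, 6670 and 6264 in *rcb-10*. Like *SIG4*, it was lowest on Col-0 replicate 1 and high on all *rcb-10* arrays.

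Closest to *GLK1* were AT3G07090 (r = 0.999), AT2G39670 (r = 0.997) and the plastid gene *rbcL* (r = 0.997). *rbcL* had signals of 4127, 3685 and 3389 in Col-0 and 680, 607 and 616 in *rcb-10*, so that, as with *GLK1*, Col-0 replicate 1 was the highest and replicate 3 the lowest of the Col-0 arrays. Closest to *FSD2* were AT3G15410 (r = 0.998), AT1G55890 and AT3G25480 (r = 0.996 each), which differed less between the genotypes (log2 difference −0.48, −0.46 and −0.53). After quantile normalization *MCCB*, AT3G15410 and AT3G07090 were still the closest to *SIG4*, *FSD2* and *GLK1*, and the other 6 genes were replaced.

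**Figure D5:**
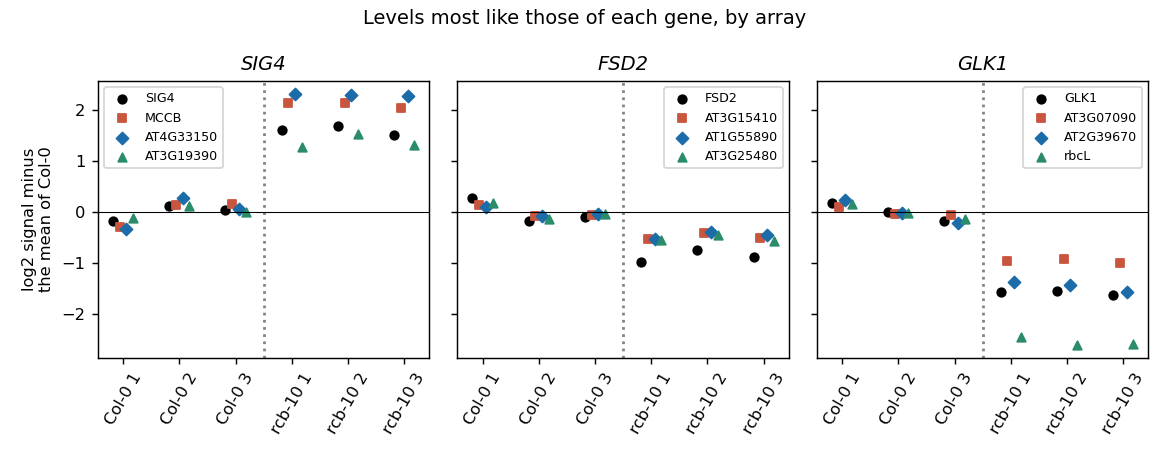
Log2 signal of each array minus the mean of Col-0 for *SIG4*, *FSD2* and *GLK1* (black) and for the 3 probe sets with the highest r with each over the 6 arrays (coloured). The panel of *GLK1* shows *rbcL* with the same order of the Col-0 arrays and a larger difference, −2.55 in place of −1.59.

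The seedlings were measured whole. A change in the number of cells of a type and a change in RNA per cell therefore cannot be told apart for *SIG4*, *FSD2* or *GLK1*. None of 8 listed markers of photosynthetic cells and none of 3 of the phloem has a probe set named here. Of 8 root markers 2 were measured (*EXPA7* and *PRP3*), and their summed signal was 570 to 888 in Col-0 and 263 to 298 in *rcb-10*, most of it from *PRP3*. *EXPA7*, a root hair expansin, fell (log2 difference −1.06, standard error 0.23, adjusted p = 0.0328). That call held in the refit lacking Col-0 replicate 2 and ended when any other array was dropped (adjusted p up to 0.0914), and it also ended with quantile normalization, median centring, the replicate block and the methods' t-test (adjusted p = 0.054, 0.0535, 0.0594 and 0.068). The signal of 1 of 4 epidermal markers (*PDF1*) was 5116 to 6387 in Col-0 and 1463 to 2157 in *rcb-10*, and the summed signal of 2 of 4 guard cell markers (*FAMA* and *KAT1*) was 583 to 744 in Col-0 and 363 to 413 in *rcb-10*. *FAMA* itself did not pass (log2 difference −0.20, adjusted p = 0.382). *PRP3*, *PDF1* and *KAT1* are named only through Supplementary Data 1, which picked them for differing between these arrays, so that the sums that hold them had to differ and show nothing about these cell types. *EXPA7* and *FAMA* are the only markers here that were measured independently of it. None of the 5 was below background on any array, and the part of cell makeup in the levels of the 3 genes was not tested.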

How the data were processed

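Biotin-labelled RNA of 3 Col-0 and 3 *rcb-10* seedling samples was hybridized to 1-colour ATH1 arrays. The methods name GeneSpring GX and RMA, and give no aligner or genome build. The values deposited by the authors are linear probe set intensities with equal trimmed means (2% left out at each end), not RMA output on a log2 scale, and how they were summarised from the probes is not stated in the methods or labels. Columns of fold changes and p-values in the supplementary tables were not used. Of 22810 probe sets, 64 array controls were left out.

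The log2 of the intensities was compared between genotypes with limma 3.58.1 in R 4.3.3 (lmFit and eBayes), without a filter or further normalization, and p-values were adjusted over all 22746 probe sets by Benjamini-Hochberg. Called means an adjusted p under 0.05. Python 3.11.15 and pandas 2.3.3 were used for tables. The script was tested on simulated data. With 3 arrays in a group the number of arrays limits the precision, and an exact permutation test cannot give a p below 0.1.

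Genes were named by a probe table updated through RefSeq TAIR10.1 gene identifiers (1 gene for 13513 probe sets, several for 503, 8730 not listed), of several probe sets the one with the highest mean. A further 481 probe sets were named only through Supplementary Data 1, *SIG4*, *FSD2* and *GLK1* among them, and these were left out of list counts. No coordinates were used, since the files name no build, and no sequences were read.

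The members and lists were chosen with earlier results of these data known. The genes named were the 3 members with every array, every other measured sigma factor, PEP-associated protein, superoxide dismutase and *GLK2*, *ndhF* and *psbN*, the 3 probe sets most like each member, and of each other list up to 4 called genes with the smallest adjusted p or, with fewer than 2 called, the 2 with the largest difference. Alternatives were quantile normalization, median centring, leaving out the dimmest 25% of probe sets or each array in turn, raising low signals to background, a variance trend with robust variances, the replicate number as a block, the log2 ratio of mean intensities and the methods' t-test (equal variances, on log2 values).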

Additional observations from a re-analysis of the deposited data

How the results depend on the processing

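*SIG4*, *FSD2* and *GLK1* kept their direction under the alternatives run for them (quantile normalization, median centring, the replicate block, low signals raised, the log2 ratio of means and each array left out). Only quantile normalization could have changed it. Median centring adds 0.17 to every log2 difference, which is less than the size of each of these differences. The arrays of the genotypes do not overlap, so neither dropping an array nor the ratio of means could reverse it. A block leaves each difference as it is, and no array of these genes was below background. Median centring moved the log2 difference of *SIG4* to 1.78 and that of *GLK1* to −1.42, and without 1 array the values were 1.53 to 1.67, −0.96 to −0.73 and −1.67 to −1.50 for *SIG4*, *FSD2* and *GLK1*. Replicate numbers did not pair the arrays: deviations of same-numbered arrays from their genotype means correlated at −0.0189 to 0.0272. With the replicate number as a block, limma called 0 probe sets (6823 at an unadjusted p under 0.05, lowest adjusted p = 0.0539), and so 0 genes of each list, while the log2 differences of the 3 genes were unchanged.

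The count of probe sets called was 3853, 1256 to 2224 without 1 array, and 5951 with robust variances and a trend. With a fold of at least 2 it was 1642, and 1068 to 1422 without 1 array. Among lists, without 1 array 0 to 1 were called of other plastid transcription proteins, of *GLK1* targets, of greening regulators and of superoxide and peroxide scavengers, 5 to 10 of the plastid genes, and 4 of 4 PEP core genes in every refit. Of *GLK1* targets 2 were called with low signals raised and 2 by the methods' t-test. Of the scavengers 1 was called with median centring, 1 without the dimmest probe sets, and 2 with a variance trend and robust variances. The cause of these changes was not tested. A block leaves fewer residual degrees of freedom, and the part of this in the loss of calls was not tested either.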
